A study of Mus musculus with 6 samples.

Results

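Collagen chains are the polypeptides that fold in trimers into the triple helices of collagen, the main structural protein of the extracellular matrix. In mouse hearts dissected at E13.5, 39 collagen chain genes were measured, out of 14860 genes with values. They were chosen as the array rows annotated with exactly 1 gene symbol of the form Col, a type number, the letter a and a chain number. Each chain had 1 such row, and 0 rows were set aside. Of the 44 mouse genes with symbols of that form in the RefSeq gene table, Col19a1, Col22a1, Col28a1, Col6a4 and Col6a5 were not analysed here. The chains fell into 11 fibrillar, 8 basement membrane and 20 other chains.

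The study compared hearts with and without removal of Hic2, a gene whose product is a transcriptional repressor with zinc fingers and a BTB domain. Controls were embryos homozygous for a floxed Hic2 allele (Hic2 FL/FL) without Cre, and conditional knockouts carried the same floxed alleles together with Mesp1 Cre/+. Both genotypes therefore share the floxed alleles, and they differ in the Cre allele as well as in Hic2, since no group carried Cre alone. Mesp1-driven Cre acts in the early mesoderm from which most heart cells descend, so cells of other origin, such as those from the neural crest, are not its targets. Each genotype had 3 biological replicates, each 1 array with RNA pooled from 4 to 6 hearts. Values are log2 expression values made with RMA by the authors, in which 1 unit is a doubling of signal. A level of 1 gene is not comparable with that of another gene on this scale, so each chain is compared only with itself between arrays.

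Fibrillar collagens (types I, II, III, V, XI, XXIV and XXVII) assemble into the cross-striated fibrils that carry tension, with types I and III making up most of the fibrils of heart connective tissue. Type IV chains build the sheet-like network of basement membranes, which in the heart surround cardiomyocytes and underlie the endothelium, and the multiplexins XV and XVIII sit at the edge of those membranes. The other types attach to fibril surfaces, form beaded filaments or short-chain lattices, or span the cell membrane. In the embryonic heart, fibroblasts, epicardium-derived cells and the mesenchyme of the cushions that become valves are the main producers of fibrillar chains.

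The arrays as a whole were alike, with array medians between 7.41 and 7.48 and correlations between arrays of 0.993 to 0.997. Of 9 listed cardiomyocyte markers 5 were measured, with a mean log2 value of 13.1 to 13.2 in every array. Levels of different genes are not comparable on this scale, so this mean does not test the tissue label. Of the 5 markers 2 were higher and 3 lower in the knockout, 0 past the threshold. Nkx2-5, a cardiac transcription factor, was separated at -0.37 ± 0.10 (SE, limma adjusted p = 0.157). Hic2 had values of 8.10, 8.26 and 8.14 in controls and 8.07, 7.96 and 8.04 in knockouts, a difference of -0.14 ± 0.07 (SE, limma adjusted p = 0.314), with p = 0.1 by exact permutation of the arrays (two-sided), a design in which no smaller p can occur. The position of its probes relative to the deleted part of the gene was not examined, so this value may not check the deletion. Control replicate 3 stood apart in Y-linked genes, with Eif2s3y at 4.36 against 8.51 to 9.64 and Kdm5d at 5.33 against 7.15 to 8.23 in the other 5 arrays, so results that rest on it are also given without it.

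The conditional knockout arrays differed from the controls in 83 of 14860 genes at a limma adjusted p under 0.05, and in 0 of the 39 collagen chains, where 0.559% of all genes passed (0.336% higher and 0.222% lower in the knockout). The smallest limma adjusted p among the chains was 0.0766, for Col26a1, followed by 0.0806 for Col15a1. At an unadjusted p under 0.05 there were 5 chains with lower values in the knockout and 0 with higher values, against 6.8% of all genes with lower and 10.7% with higher values. The same 5 chains, Col3a1, Col5a1, Col14a1, Col15a1 and Col26a1, had all 3 knockout arrays below all 3 control arrays. They make up 12.8% of the chains, and 10.4% of all genes were separated in that direction (24.6% in either), so the count of separated chains was near the background. Because hearts were measured whole, fewer collagen-producing cells and less collagen RNA per cell cannot be told apart.

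The sign of the differences leaned to lower values. Of the 39 chains 29 were lower and 10 higher in the knockout, with a median log2 difference of -0.04, while 48.4% of all genes were lower and their median was 0.0050. The differences were small beside the replicate error. In 26 chains the difference was under 1 standard error, and in 34 the 95% confidence interval included 0. For 25 chains the whole interval lay within a 1.2-fold difference in either direction. Signal was below the median of all genes in 23 chains, and 18 of these differed by under 1 standard error. Among the 16 brighter chains 8 did. Of the brighter chains 4 were separated, all lower, where 1081 of 7430 brighter genes were separated lower, and of the dim chains 1 was. RMA compresses differences of dim probe sets, so a narrow interval of a dim chain does not show an unchanged RNA level. The split of 29 lower and 10 higher moved with the scaling, to 33 lower and 6 higher after quantile normalization. It also moved with the arrays used, as given below.

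**Figure D1:**
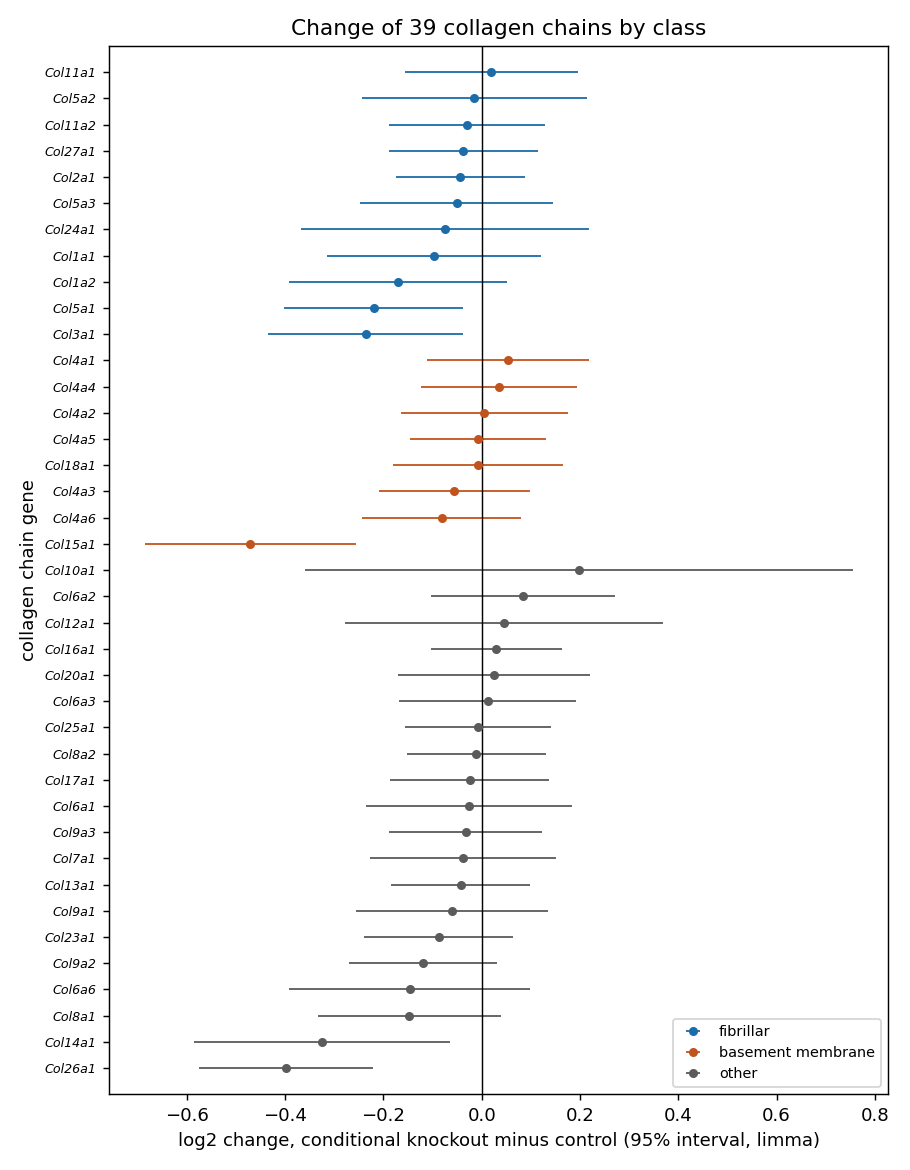
Log2 difference between conditional knockout and control hearts (x axis) for each of the 39 collagen chains (y axis), with 95% confidence intervals from limma over 3 arrays per genotype, coloured by class. The intervals of Col3a1, Col5a1, Col14a1, Col15a1 and Col26a1 lie wholly below 0, and the other 34 include 0.

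The sequence upstream of the annotated start is shown for the 3 separated chains with an entry in the RefSeq promoter table (Col15a1, Col3a1 and Col5a1) and, for contrast, for Col18a1, the other multiplexin, whose genotypes overlapped. Each run is the 250 bases before the start, 5′ to 3′ on the gene's strand, in GRCm38.p6. Capitals mark GGGCA or its reverse complement TGCCC. The former letters contain the core reported for the binding site of HIC1, the closest relative of HIC2. The Col15a1 run covers chr4:47207762-47208011 on the plus strand, the Col18a1 run chr10:77166531-77166780 on the minus strand, the Col3a1 run chr1:45311288-45311537 on the plus strand and the Col5a1 run chr2:27886175-27886424 on the plus strand.
Col15a1: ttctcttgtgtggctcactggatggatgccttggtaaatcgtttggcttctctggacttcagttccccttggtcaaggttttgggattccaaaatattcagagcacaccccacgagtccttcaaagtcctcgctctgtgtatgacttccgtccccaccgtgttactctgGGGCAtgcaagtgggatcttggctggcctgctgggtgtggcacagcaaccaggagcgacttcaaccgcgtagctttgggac
Col18a1: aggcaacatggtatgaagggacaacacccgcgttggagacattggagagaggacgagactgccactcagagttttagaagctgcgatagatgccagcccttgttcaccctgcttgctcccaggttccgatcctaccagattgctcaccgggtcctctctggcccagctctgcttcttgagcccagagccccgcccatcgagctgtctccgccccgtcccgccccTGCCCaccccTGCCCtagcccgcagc
Col3a1: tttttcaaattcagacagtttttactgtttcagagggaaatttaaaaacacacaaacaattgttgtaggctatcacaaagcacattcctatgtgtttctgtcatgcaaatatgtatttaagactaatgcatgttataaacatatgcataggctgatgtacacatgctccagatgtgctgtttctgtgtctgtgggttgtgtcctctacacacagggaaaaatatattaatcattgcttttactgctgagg
Col5a1: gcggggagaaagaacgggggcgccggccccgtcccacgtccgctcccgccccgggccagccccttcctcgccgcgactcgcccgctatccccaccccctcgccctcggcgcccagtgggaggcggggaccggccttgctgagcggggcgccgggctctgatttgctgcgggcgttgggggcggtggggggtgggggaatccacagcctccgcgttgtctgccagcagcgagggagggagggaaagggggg
The letters occurred 1 time upstream of Col15a1, 2 times upstream of Col18a1 (the second window of that gene in the table, not printed, held 0) and 0 times upstream of Col3a1 and of Col5a1. Searched on both strands, GGGCA was present in 19 of 34 windows of 31 collagen chain genes and in 47.7% of 32851 windows of the same length upstream of mouse genes. The GC box letters GGGCGG were present in 20 of the 34 collagen windows and in 32.7% of all windows, CCAAT in 12 and 33.8%, and TATAAA in 5 and 12.4%. The median share of G and C was 60.0% in the collagen windows and 52.4% in all windows. The part of this base composition in the motif counts was not tested. Motifs were counted separately, also where they overlapped. These are matches of letters, and nothing was measured at these windows.

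Among the 8 basement membrane chains 0 passed the adjusted threshold and 1 was separated, where 10.4% of all genes were separated lower. The separated chain was Col15a1, a multiplexin found around capillaries and muscle fibres that releases an endostatin-like fragment. Its log2 values were 8.18, 8.31 and 8.48 in control replicates 1 to 3 and 7.74, 7.94 and 7.87 in knockout replicates 1 to 3. The knockout arrays all lay below the controls, by a gap narrower than the range of the controls. The difference was -0.47 ± 0.09 (SE, 95% confidence interval -0.69 to -0.26), a signal change of -27.8%, with a limma adjusted p of 0.0806 over all genes. When 1 array at a time was left out, the difference stayed between -0.54 and -0.39, with limma adjusted p from 0.117 to 0.207. It was weakest, at -0.39, without control replicate 3, where the limma adjusted p was 0.183. Over the other alternatives the limma adjusted p ranged from 0.0457 to 0.245. Col18a1, the multiplexin that yields endostatin, had values of 10.10, 10.15 and 10.08 in controls and 10.22, 10.11 and 9.97 in knockouts. These groups overlapped, with a difference of -0.0084 (95% confidence interval -0.18 to 0.16).

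The 6 type IV chains each overlapped between genotypes, with differences from -0.08 to 0.05. Col4a1, which with Col4a2 forms the common network of vessels and muscle, had values of 10.17, 10.23 and 10.26 in controls and 10.38, 10.28 and 10.16 in knockouts. Col4a2 had values of 9.16, 9.28 and 9.32 in controls and 9.35, 9.26 and 9.17 in knockouts. In both, knockout replicate 1 was the highest array, and the groups overlapped, with differences of 0.05 (95% confidence interval -0.11 to 0.22) and 0.0052 (-0.16 to 0.18). The genes of this pair lie head to head on 1 chromosome and are transcribed away from each other.

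Col4a3 and Col4a4, the chains of specialised membranes such as that of the kidney glomerulus, gave differences of -0.06 ± 0.07 and 0.04 ± 0.07 (SE). Col4a3 had values of 6.75, 6.62 and 6.81 in controls and 6.64, 6.67 and 6.69 in knockouts. Col4a4 had values of 6.77, 6.71 and 6.88 in controls and 6.76, 6.84 and 6.87 in knockouts. The groups overlapped in both chains.

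Col4a5 and Col4a6, which are X-linked, gave differences of -0.0073 ± 0.06 and -0.08 ± 0.07 (SE). Col4a5 had values of 8.14, 8.14 and 8.24 in controls and 8.21, 8.16 and 8.13 in knockouts. Col4a6 had values of 7.52, 7.55 and 7.58 in controls and 7.59, 7.42 and 7.41 in knockouts. Control replicate 3, the array with low Y-linked signals, was the highest control array for both, and without it the differences were 0.02 and -0.07. Whether the sex of the pooled embryos bears on these chains was not tested.

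Fibrillar chains were lower in 10 of 11 genes, with a median difference of -0.05, where 48.4% of all genes were lower. In 7 of the 11 the difference was under 1 standard error. By limma 0 of the 11 passed the adjusted threshold. At an unadjusted p under 0.05 there were 2, Col3a1 and Col5a1, both lower, against 6.8% of all genes.

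Type III collagen, a homotrimer of the Col3a1 chain, is abundant in distensible tissues such as vessel walls and the heart. Col3a1 had values of 9.97, 10.13 and 10.07 in controls and 9.90, 9.89 and 9.66 in knockouts. Knockout replicate 3 was the lowest array, and replicates 1 and 2 lay just under the controls. The difference was -0.24 ± 0.08 (SE, 95% confidence interval -0.43 to -0.04), a signal change of -15.1%, with a limma adjusted p of 0.219. Without knockout replicate 3 it was -0.16, with a limma adjusted p of 0.464.

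Type V collagen starts fibrils and limits their width, and Col5a1 is its obligatory chain. Col5a1 had values of 8.73, 8.82 and 8.85 in controls and 8.68, 8.62 and 8.44 in knockouts. The groups were separated by a narrow gap, again with knockout replicate 3 lowest. The difference was -0.22 ± 0.08 (SE, 95% confidence interval -0.40 to -0.04), with a limma adjusted p of 0.216, and -0.15 without knockout replicate 3. Its partner Col5a2 had values of 8.74, 8.87 and 8.58 in controls and 8.85, 8.72 and 8.58 in knockouts, which overlapped (difference -0.02 ± 0.10, SE). Col5a3, the third type V chain, had values of 7.23, 7.06 and 7.37 in controls and 7.14, 7.19 and 7.18 in knockouts, which also overlapped.

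Type I collagen, the most abundant fibril protein, is made of Col1a1 and Col1a2 chains. Col1a1 had values of 10.97, 11.17 and 11.14 in controls and 11.12, 11.03 and 10.83 in knockouts. Col1a2 had values of 10.36, 10.57 and 10.45 in controls and 10.40, 10.37 and 10.11 in knockouts. Knockout replicate 3 was lowest for both chains while the other 2 knockout arrays lay inside the control range. The differences were -0.10 (95% confidence interval -0.31 to 0.12) for Col1a1 and -0.17 (-0.39 to 0.05) for Col1a2. Without knockout replicate 3 they shrank to -0.01 and -0.08.

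The cartilage-type fibrillar chains are also made in valve mesenchyme, and none was separated here. Col2a1, the chain of type II collagen, had values of 8.80, 8.70 and 8.76 in controls and 8.72, 8.70 and 8.70 in knockouts. Col11a1, which belongs to the thin fibrils of cartilage and was the only fibrillar chain with a difference above 0 (0.02 ± 0.08, SE; below 0 after median centring, quantile normalization or array weighting), had values of 7.30, 7.20 and 7.13 in controls and 7.33, 7.13 and 7.23 in knockouts. Col11a2, its partner, had values of 7.74, 7.64 and 7.82 in controls and 7.64, 7.74 and 7.74 in knockouts. The groups overlapped in all 3 of these chains.

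The minor fibrillar chains also overlapped between genotypes. Col27a1, a fibrillar chain of developing cartilage, had values of 8.39, 8.33 and 8.50 in controls and 8.33, 8.40 and 8.38 in knockouts. Col24a1 had values of 4.71, 4.38 and 4.24 in controls and 4.24, 4.47 and 4.40 in knockouts. Its signal was dim, at percentile 8.28 of all genes, and no detection call was used to separate such a level from background.

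**Figure D2:**
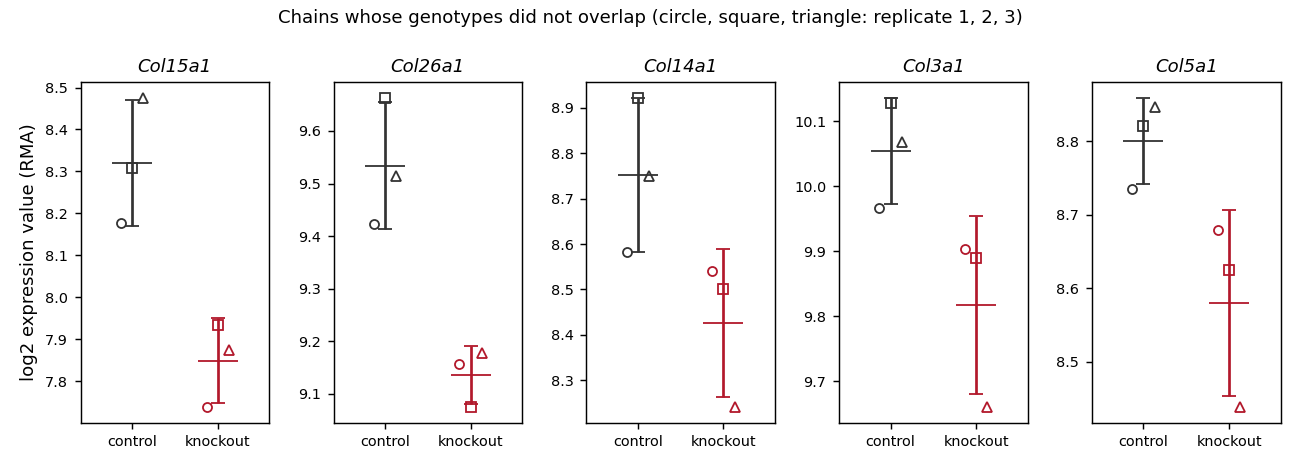
Log2 expression values (y axis, each panel on its own scale) of the 5 chains whose genotypes did not overlap, in control (dark grey) and conditional knockout (red) arrays. Open symbols are single arrays (circle, square and triangle for replicates 1, 2 and 3), and the bar with whiskers is the mean ± SD of 3 arrays. Knockout replicate 3 is the lowest array for Col14a1, Col3a1 and Col5a1 and is not the lowest for Col15a1 and Col26a1.

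Among the 20 other chains, 14 were lower and 6 higher, with a median difference of -0.03, where 48.4% of all genes were lower. Of the 20 chains 2 were separated, both lower, near the 10.4% of all genes separated in that direction. Col26a1, a short collagen described in mouse testis and ovary, had values of 9.42, 9.66 and 9.51 in controls and 9.16, 9.07 and 9.18 in knockouts. The 3 knockout arrays lay within a narrow range well below the controls. The difference was -0.40 ± 0.08 (SE, 95% confidence interval -0.57 to -0.22), a signal change of -24.1%, with a limma adjusted p of 0.0766. It passed the threshold when only the brighter genes were tested (adjusted p = 0.0176), with a variance trend and robust moderation (0.0463) and with array weights (0.0229), and over its alternatives the limma adjusted p ranged from 0.0176 to 0.236.

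Col14a1, a fibril-associated collagen that coats mature fibrils, had values of 8.58, 8.92 and 8.75 in controls and 8.54, 8.50 and 8.24 in knockouts. Knockout replicate 3 was again the lowest array, and replicate 1 lay close under the lowest control. The difference was -0.32 ± 0.11 (SE, 95% confidence interval -0.59 to -0.06), with a limma adjusted p of 0.207, and -0.23 without knockout replicate 3. The other 6 fibril-associated chains overlapped between genotypes, and none passed. The type IX chains Col9a1, Col9a2 and Col9a3, which coat cartilage fibrils, gave -0.06, -0.12 and -0.03, while Col16a1 and Col20a1 gave 0.03 and 0.02. Col12a1, which binds fibrils in tendon and muscle, varied more between arrays of 1 genotype, from 7.40 to 7.82 in controls and from 7.47 to 7.89 in knockouts, than it differed between genotypes (0.05 ± 0.14, SE).

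Type VI collagen forms beaded filaments around cells and links basement membranes to fibrils. Its main chains Col6a1, Col6a2 and Col6a3 gave differences of -0.03 ± 0.09, 0.08 ± 0.08 and 0.01 ± 0.08 (SE). Col6a1 had values of 9.98, 10.20 and 10.12 in controls and 10.17, 10.13 and 9.92 in knockouts. As with types I and III, knockout replicate 3 was the lowest array for Col6a1 and Col6a3, and without it their differences were 0.05 and 0.09. Col6a6, a later addition to the family, gave -0.15 ± 0.11 (SE) with overlapping groups.

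The remaining 8 chains of this class all overlapped. The short-chain network collagens Col8a1, made by endothelial and smooth muscle cells, and Col8a2 gave -0.15 ± 0.08 and -0.01 ± 0.06 (SE). Col10a1, the chain of growth plate cartilage, had the largest standard error of the 39 chains, 0.24, with values of 5.44, 4.80 and 5.77 in controls and 5.70, 5.24 and 5.66 in knockouts, and its difference of 0.20 had a 95% confidence interval from -0.36 to 0.75. The anchoring fibril chain Col7a1 gave -0.04 ± 0.08. The membrane-spanning chains Col13a1, Col17a1, Col23a1 and Col25a1 gave differences between -0.09 and -0.0070.

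The arrays did not contribute evenly. Knockout replicate 3 held the lowest value of 15 of the 39 chains, or 38.5%, while it held the lowest value of 21.6% of all genes, and it held the highest value of 0 chains against 26.5% of all genes. Control replicate 3 held the highest value of 18 chains, or 46.2%, against 15.5% of all genes. By class, the mean log2 value of the 11 fibrillar chains was 8.45, 8.44 and 8.45 in control replicates 1 to 3 and 8.40, 8.39 and 8.30 in knockout replicates 1 to 3. For the 8 basement membrane chains it was 8.35, 8.37 and 8.45 in controls and 8.36, 8.33 and 8.28 in knockouts. For the other 20 chains it was 7.93 in control replicates 1 and 2 and highest in control replicate 3, and it was 7.96, 7.90 and 7.85 in knockouts. The 3 fibrillar means of the knockout lay below those of the controls, while the other classes overlapped. Leaving out control replicate 3 changed the split from 29 lower and 10 higher to 23 and 16, and leaving out knockout replicate 3 changed it to 24 and 15. Of the 5 chains with an unadjusted p under 0.05, 2 (Col15a1 and Col26a1) were left without knockout replicate 3 and also without control replicate 2, and 3 (with Col14a1) without control replicate 3.

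**Figure D3:**
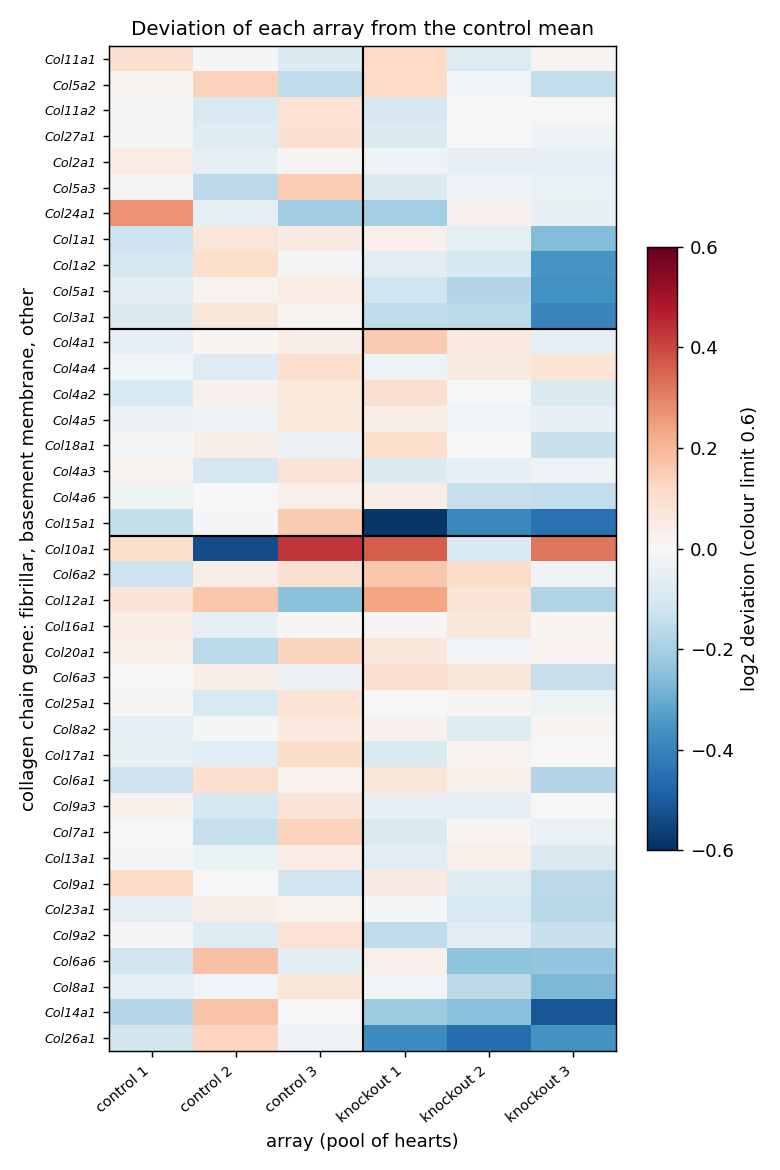
Deviation of each array (x axis) from the mean of the 3 control arrays, in log2 units shown by colour with a limit at 0.6, for the 39 chains (y axis) grouped as fibrillar, basement membrane and other. Col15a1 and Col26a1 are low in all 3 knockout arrays, whereas Col1a1, Col1a2, Col3a1, Col5a1 and Col14a1 are lowest in knockout replicate 3.

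**Figure D4:**
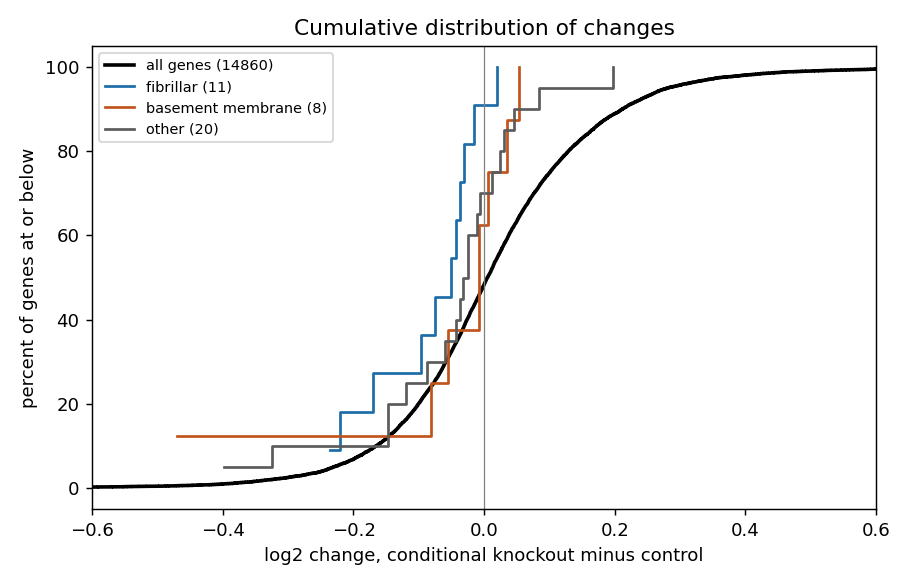
Cumulative share of genes (y axis, percent) at or below each log2 difference (x axis) for all 14860 genes and for the fibrillar, basement membrane and other chains. The fibrillar curve reaches 90.9% at 0, where the curve for all genes stands at 48.4%, and the fibrillar, basement membrane and other chains have medians of -0.05, -0.0078 and -0.03.

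Genes that modify, export, cleave, cross-link or bind collagen were compared in the same fit, and 0 of 51 measured genes passed the adjusted threshold. Of these genes 23 were higher and 28 lower in the knockout, with a median of -0.01. At an unadjusted p under 0.05 there were 6 with higher and 3 with lower values, shares near those of all genes (10.7% higher and 6.8% lower).

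The 14 enzymes of prolyl and lysyl modification, which hydroxylate and glycosylate collagen in the endoplasmic reticulum, held 4 of those 6 and 1 of the 3 with lower values. The same 5 enzymes were separated, 4 higher and 1 lower, where 14.2% of all genes were separated higher and 10.4% lower. P4ha1, a catalytic subunit of prolyl 4-hydroxylase, had values of 10.62, 10.72 and 10.57 in controls and 11.21, 10.95 and 10.97 in knockouts (difference 0.41 ± 0.09, SE, limma adjusted p = 0.0939). Plod2, the lysyl hydroxylase of collagen telopeptides, had values of 10.34, 10.46 and 10.18 in controls and 10.98, 10.69 and 10.63 in knockouts (0.44 ± 0.11, limma adjusted p = 0.130). P4ha2 gave 0.40 ± 0.12 and Plod1, named after its values were seen, gave 0.24 ± 0.08. Knockout replicate 1 was the highest array for all 4. Colgalt2, a collagen galactosyltransferase, was separated in the other direction at -0.18 ± 0.06.

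The cleavage, cross-linking and fibril-binding lists also held separated genes, where 14.2% of all genes were separated higher and 10.4% lower. Of the listed symbols, 5 of 7 were measured for cross-linking, 6 of 10 for cleavage and 4 of 8 for folding and export. For fibril-binding and matrix partners 11 of 12 were measured, and for basement membrane partners 4 of 4. The lysyl oxidase Loxl2, which cross-links collagen, gave 0.17 ± 0.06 (SE) with separated groups, and the cross-linking transglutaminase Tgm2 gave -0.11 ± 0.07, also with separated groups. Bmp1, the protease that removes the C-propeptide of fibrillar procollagens, gave -0.14 ± 0.07 with separated groups. Of 6 cleavage genes 5 were lower, against 48.4% of all genes, and in 3 of the 6 the difference was under 1 standard error. The 4 measured folding and export genes overlapped, with the largest difference in Fkbp14 (0.09 ± 0.07). Among 11 fibril-binding and matrix partner genes, the small proteoglycan Ogn had values of 10.04, 10.08 and 9.99 in controls and 10.21, 10.36 and 10.48 in knockouts (0.31 ± 0.08, limma adjusted p = 0.137), and the collagen-binding Sparc was separated at 0.05 ± 0.05. The 4 basement membrane partners overlapped, with Hspg2, the perlecan gene, at 0.11 ± 0.18, where knockout replicate 1 was the highest array (10.62) and replicate 3 the lowest (9.85). Without knockout replicate 1 the sign of Hspg2 turned, to -0.10.

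Collagen receptors were lower in 6 of 7 measured genes, with a median of -0.13, where 48.4% of all genes were lower. In 3 of the 7 the difference was under 1 standard error, and 2 were separated, both lower, against 10.4% of all genes. Ddr1, a receptor tyrosine kinase activated by collagen, had values of 11.25, 11.31 and 11.32 in controls and 11.17, 11.07 and 11.08 in knockouts (-0.19 ± 0.06, SE, limma adjusted p = 0.176). Itga2, the alpha chain of a collagen-binding integrin, had a mean of 8.05 ± 0.05 in controls and 7.79 ± 0.17 in knockouts (SD, n = 3; difference -0.26 ± 0.09, SE, limma adjusted p = 0.216). Both were separated and neither passed.

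**Figure D5:**
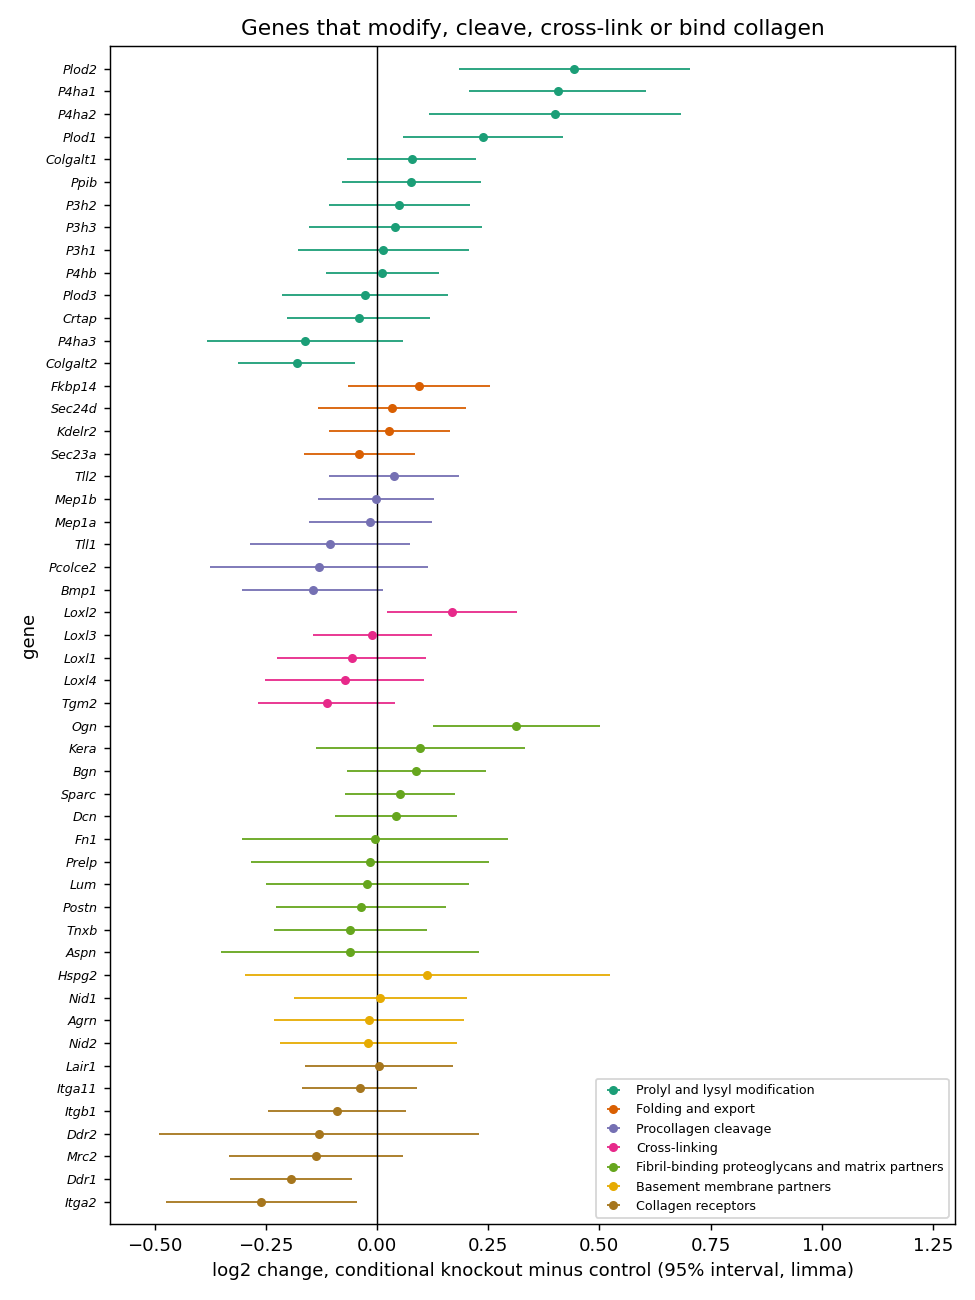
Log2 difference between conditional knockout and control hearts (x axis) with 95% confidence intervals from limma for 51 genes (y axis) that act on or bind collagen, coloured by their step. The intervals of Plod2, P4ha1, P4ha2, Ogn, Plod1 and Loxl2 lie above 0, those of Itga2, Ddr1 and Colgalt2 lie below 0, and the others include 0.

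Of 8 fibroblast and mesenchyme markers 4 were higher and 4 lower, with summed linear signals of 32060 to 33560 in controls and 30370 to 32430 in knockouts. Their median difference was 0.01, and 0 passed the threshold. The lowest was Pdgfra at -0.35 ± 0.12 (SE, limma adjusted p = 0.207), with overlapping groups, and the highest Tcf21 at 0.14 ± 0.07 (limma adjusted p = 0.323). Of 7 valve mesenchyme markers 3 were higher and 4 lower, with summed signals of 4862 to 5707 in controls and 4567 to 5749 in knockouts. Of 8 cartilage markers 3 were higher and 5 lower, with summed signals of 890 to 993 and 864 to 988. Twist1 stands in both the fibroblast and valve lists and Hapln1 in both the valve and cartilage lists. Of all genes 0.336% passed the threshold with higher and 0.222% with lower values in the knockout. In the same arrays all 9 erythroid markers were lower, 5 past the threshold, with summed signals of 47190 to 51560 and 38000 to 41540, and all 9 macrophage markers were higher, 2 past the threshold, with 2821 to 3176 and 3752 to 4148. Of 9 smooth muscle and pericyte markers 6 were lower, 1 past the threshold, with 22240 to 22590 and 21070 to 21890. Of 7 epicardial markers 5 were higher, 1 past the threshold, with 9188 to 10250 and 10150 to 11750, and of 8 endothelial and endocardial markers 5 were higher, 0 past the threshold, with 22110 to 22980 and 23390 to 24910. The endothelial median difference was 0.01, and Emcn alone was separated in that list, at 0.35 ± 0.06 (SE). Of 5 skeletal muscle markers 3 were higher and 2 lower, with 1 past the threshold in each direction, and the 2 neural crest markers had opposite signs. Of 5 airway or gut markers 4 were lower, 0 past the threshold. In that list 1 control array stood out for Epcam and Cdh1. Epcam was 7.57 in control replicate 1 and 6.32 to 6.68 in the other arrays, and Cdh1 was 7.34 and 6.63 to 6.81. These sums add array signals of different probe sets, so each is compared only with itself between arrays, and the row with the highest array signal weighs most. That row was Tnnt2 for the cardiomyocyte list, Vim for the fibroblast and mesenchyme list, Vcan for the valve mesenchyme list, Emcn for the endothelial and endocardial list, Acta2 for the smooth muscle and pericyte list, Upk3b for the epicardial list, Hapln1 for the cartilage list, Acta1 for the skeletal muscle list, C1qb for the macrophage list, Hbb-y for the erythroid list, Foxa2 for the airway or gut epithelium list, Erbb3 for the neural crest and schwann list. No marker is at 0 on this scale, and the part of these cell types in the values of the collagen chains was not tested.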

How the data were processed

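RNA of 6 pools of hearts was amplified, labelled and hybridised to Affymetrix mouse exon arrays, per the labels' protocols and the platform annotation. The authors deposited log2 values, and the submitters' processing notes name RMA and the software Affymetrix Expression Console. The version, probe set level and annotation release are not given in the sources. RMA brings all arrays to a shared distribution, hides changes common to most genes and compresses differences of dim probe sets. Arrays carry no counts, so their number limits the precision.

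Of 23332 rows, 14996 carried 1 gene symbol, 1019 carried several and 7317 were unnamed here. For 135 genes with more than 1 row the brightest was kept, leaving 14860 genes with no filter. Of the single-symbol rows, 14941 gene identifiers matched RefSeq (GRCm38.p6), and 0 symbols changed. Genotypes were compared with limma 3.58.1 in R 4.3.3 (lmFit, eBayes, two-sided, Benjamini-Hochberg over all genes, threshold 0.05), which was tested on simulated data. Errors are standard errors of that fit. Without detection calls, low values and background cannot be told apart. The labels name biological replicates and no litter, batch or sex.

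Members, classes and lists were chosen with earlier results of these data known. Every fibrillar and basement membrane chain was named with its arrays, as were other chains with an unadjusted p under 0.05 or separated groups, and the rows of highest (Col6a1) and lowest (Col10a1) array signal in that class. Up to 4 genes with the smallest p were named in each companion list, and the row of highest array signal in each marker list. Emcn, Nkx2-5, Pdgfra, Tcf21, Epcam and Cdh1 were added after their values were seen. Alternatives were median centring, quantile normalization, array weights, a replicate block, robust moderation with a trend in the variance, brighter genes only, all rows, the mean of rows, type IV chains alone as basement membrane, and leaving out each array.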

Additional observations from a re-analysis of the deposited data

How the results depend on the processing

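Over up to 14 alternatives each, 17 of the 39 chains kept their direction throughout, the 5 separated chains among them. The count of 83 genes past the limma threshold became 38 with the replicate block, 203 with a variance trend and robust moderation, 733 with array weights, 443 when only the brighter genes were tested and 0 when all rows were tested (2935 rows at an unadjusted p under 0.05), and lay between 3 and 28 when 1 array was left out. The count of 0 chains became 1 with the trend (Col26a1), 1 among brighter genes (Col26a1) and 2 with array weights (Col15a1, adjusted p = 0.0457, and Col26a1), and was 0 in every other fit, the replicate block included. Same-numbered arrays deviated from their group means with correlations of -0.04, 0.02 and 0.13 over all genes. These values cannot exclude a pairing that acts on some genes, and the labels name no litter or batch. The replicate block left the 5 chains at a limma unadjusted p under 0.05. Among the named companion genes, P4ha1, Plod2 and Ogn passed with array weights and among brighter genes. The class medians moved by less than the spread between replicates in every alternative, while that of the basement membrane chains turned above 0 with array weights, among brighter genes and without control or knockout replicate 3. Differences of other chains changed sign, none of them past the threshold. With median centring these were Col4a2 (-0.016), Col6a3 (-0.0090), Col11a1 (-0.0012). With quantile normalization these were Col4a2 (-0.020), Col6a3 (-0.020), Col11a1 (-0.0028), Col16a1 (-0.00079). With array weights these were Col4a5 (0.0027), Col6a1 (0.056), Col7a1 (0.0052), Col10a1 (-0.016), Col11a1 (-0.080), Col13a1 (0.011), Col17a1 (0.023), Col20a1 (-0.0071), Col25a1 (0.0069). When 1 array was left out the ranges that crossed 0 were Col4a2 (-0.041 to 0.051), Col4a4 (-0.0041 to 0.083), Col4a5 (-0.031 to 0.025), Col5a2 (-0.091 to 0.055), Col5a3 (-0.13 to 0.025), Col6a1 (-0.086 to 0.051), Col6a3 (-0.033 to 0.087), Col7a1 (-0.11 to 0.033), Col8a2 (-0.037 to 0.019), Col9a3 (-0.086 to 0.0063), Col10a1 (-0.070 to 0.41), Col11a1 (-0.030 to 0.067), Col11a2 (-0.076 to 0.012), Col12a1 (-0.077 to 0.16), Col17a1 (-0.057 to 0.030), Col18a1 (-0.066 to 0.055), Col20a1 (-0.057 to 0.091), Col24a1 (-0.18 to 0.059), Col25a1 (-0.052 to 0.035), Col27a1 (-0.077 to 0.0082), Hspg2 (-0.10 to 0.29). The causes were not tested. No detection calls were used, so signal over background cannot be given for dim chains such as Col24a1 and Col10a1.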
